A study of Mus musculus with 33 samples.

Results

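The genes described here are 10 nuclear genes of mouse that encode chaperones and proteases of mitochondria, namely Hspd1, Hspe1, Hspa9, Trap1, Dnaja3, Lonp1, Clpp, Clpx, Yme1l1 and Afg3l2. They were taken by symbol from 32245 genes in each of 3 tables of normalized counts, and all 10 were found and passed the filter on low values in every table. The tables hold RNA sequencing of cardiomyocytes, the muscle cells of the heart, with the molecule labelled as nuclear RNA.

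Every mutant line carries a knockout of Ptpmt1, a phosphatase of the inner mitochondrial membrane needed to make cardiolipin, that is specific to cardiomyocytes. The FST line has 3 libraries each of control, Eif2alpha mutant only, Ptpmt1 knockout only, and the double of Ptpmt1 knockout and Eif2a mutant. Eif2a stands for the alpha subunit of the translation initiation factor eIF2. The PHT line has 2 controls, 2 labelled as a cardiomyocyte-specific Hri knockout only, 3 of Ptpmt1 knockout only, and 2 doubles of Ptpmt1 and Hri knockout. The PTGC line has 3 controls and 3 doubles of Ptpmt1 and Gcn2 knockout, and no single mutant. Hri and Gcn2 are kinases that phosphorylate eIF2. Ages, the driver of the knockout, the nature of the Eif2a mutation and the genotype behind "control" are not stated in the labels, and 6 samples of a line with the Ptpmt1 knockout alone are not analysed here. Nothing in the labels says whether libraries of a group came from separate animals beyond their different titles, so p-values measure the spread between these libraries.

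Most mitochondrial proteins are made in the cytosol and pulled unfolded through the inner membrane. Hspa9 (mortalin) is the matrix Hsp70 that pulls them in, Dnaja3 is a J-domain partner of it, and Hspd1 and Hspe1 form the chaperonin barrel and its lid, in which proteins fold. Trap1 is the Hsp90 of mitochondria. Lonp1 is a matrix protease that degrades misfolded and oxidised proteins. Clpp is the proteolytic chamber of another matrix protease and Clpx the ATPase that feeds it, while Yme1l1 and Afg3l2 are inner membrane proteases that face the intermembrane space and the matrix. Induction of such genes under mitochondrial damage is known as the mitochondrial unfolded protein response, and in mammals it has been tied to the integrated stress response (ISR), the programme started by phosphorylated eIF2 and driven by the transcription factor Atf4.

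Lonp1 was the one gene of the 10 that passed the main test, described next, in any of the 13 comparisons. It was higher in the Ptpmt1 and Gcn2 double of the PTGC line than in its controls. Not passing does not show that a gene was unchanged. The deposited values were counts divided by a size factor for each library, called normalized counts below. Genes were tested with limma on log2(normalized count + 1), and a gene is called where the adjusted p (Benjamini-Hochberg over all genes tested in the table) is under 0.05. In FST, 0 of 10 were called for the Ptpmt1 knockout against control, where 0.504% of the 13896 genes tested were called. The count was also 0 of 10 for the Eif2a mutant against control (0.036% of all genes), the double against control (0.144%), the double against the Ptpmt1 knockout (0.878%), the double against the Eif2a mutant (0.0072%) and the interaction (0.0216%). The interaction compares what the Ptpmt1 knockout does in the presence of the second mutation with what it does in its absence. In PHT, 0 of 10 were called for the Ptpmt1 knockout against control (0.301% of 14965 genes), the Hri knockout against control (0.02%), the double against control (0.0267%), the double against the Ptpmt1 knockout (0.327%), the double against the Hri knockout (0.02%) and the interaction (0.12%). In PTGC, 1 of 10 was called against 0.743% of 14128 genes. With such shares a count of 0 of 10 is near the background and says nothing particular of these genes. At an unadjusted p under 0.05, 18 of the 130 tests of these genes (13.8%) passed, of which Hspa9 gave 7, against 8.02% of the tests of all genes and 3.24% to 13.8% in single comparisons.

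The median log2 difference of the 10 genes was 0.04 for the Ptpmt1 knockout against control in FST and 0.03 in PHT, and 0.01 for the PTGC double, against -0.01, 0.00 and 0.00 over all genes tested. The plot of log2 fold changes shows the few genes that lie off 0.

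**Figure D1:**
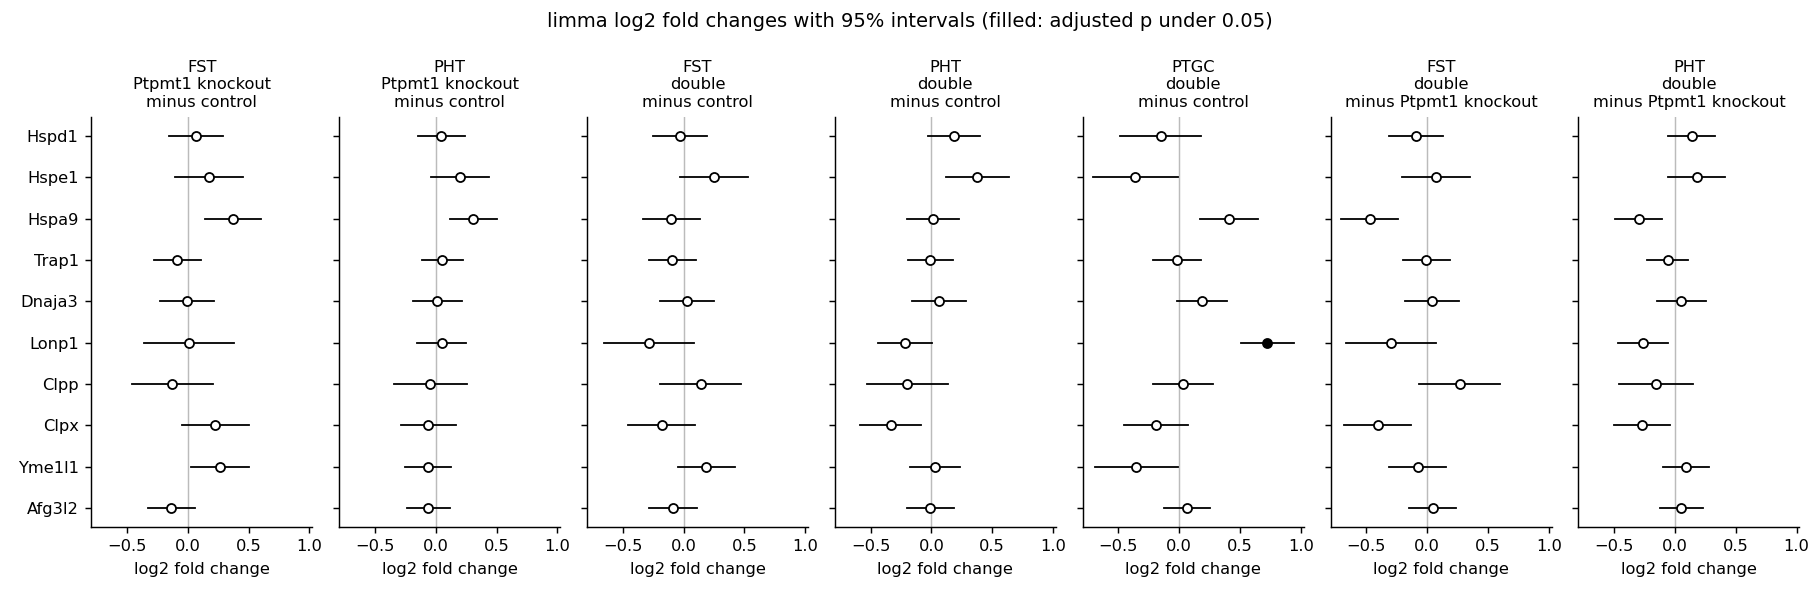
log2 fold changes of the 10 genes (rows) in 7 of the 13 comparisons (panels), with 95% intervals from limma. Filled points have an adjusted p under 0.05, which holds for Lonp1 in the PTGC panel, at 0.72; Hspa9 lies at 0.37, 0.31 and 0.41 in the Ptpmt1 knockouts of FST and PHT and the double of PTGC, with intervals above 0.

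Depth was 1887978 to 12583868 reads in genes for the 12 FST libraries, 10739569 to 19405261 for the 9 of PHT and 10795644 to 19326112 for the 6 of PTGC. The lowest, FST double 2, still gave 56 reads to Clpp, the gene of the 10 with the fewest. Ptpmt1 itself was at 156 to 175 normalized counts in the FST controls and 31.3 to 40.6 in the Ptpmt1 knockouts, and it was also below the controls in every PHT and PTGC library with the Ptpmt1 knockout. The 10 cardiomyocyte marker genes made up 2.14% to 2.78% of the signal of each library, and their share differed between groups. In the FST controls it was 2.54% to 2.78%, and every mutant group of FST lay below them without overlap. The Eif2a mutants were at 2.33% to 2.46%, the Ptpmt1 knockouts at 2.21% to 2.30% and the doubles at 2.23% to 2.33%. In PTGC it was 2.56% to 2.66% in the controls against 2.34% to 2.51% in the doubles, also without overlap. In the FST Ptpmt1 knockout 9 of the 10 markers were lower and none was called, at a median log2 difference of -0.28, and the part of this shift in the results below was not tested. In PHT the groups overlapped. Fibroblast markers made up at most 0.234% and erythroid markers at most 0.146%, and up to 4 of 5 lymphocyte markers were at 0. In bulk RNA a smaller share of a cell type and less RNA per cell cannot be told apart. FST Ptpmt1 knockout 3 stood apart from knockouts 1 and 2, with fibroblast markers at 0.234% of signal against 0.127% and 0.130%. Its erythroid markers were at 0.0416% against 0.00886% and 0.00924%, and its macrophage markers at 0.00859% against 0.00431% and 0.00332%. Its endothelial and mural markers were lower than in knockouts 1 and 2. Results that rest on knockout 3 are therefore given with and without it. Libraries also differed in a GC index, the median log2 deviation of the fifth of genes richest in GC minus that of the fifth poorest. It was -0.39 and -0.41 in FST Ptpmt1 knockouts 1 and 2 and 0.07 in knockout 3, and -0.63 in PTGC control 3 against -0.06 and 0.23 in the other PTGC controls. The sexes inferred from expression were uneven, with the male pattern in 1 of 3 FST controls, 2 of 3 doubles and all libraries of the Eif2a mutant and of the Ptpmt1 knockout, and in 2 of 3 libraries of both PTGC groups. In PHT no control had it, against both doubles, both Hri knockouts and 1 of 3 Ptpmt1 knockouts, so between the PHT controls and the Hri knockouts or doubles sex and genotype cannot be told apart without the Ptpmt1 knockouts, which alone hold both patterns.

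Per kilobase of merged exons (GENCODE, GRCm38), Hspd1 and Hspa9 had the highest levels in every group, and Clpx or Afg3l2 the lowest. Merged exons pool all annotated transcripts of a gene, so this order depends on the length used. They span 9874 bases for Afg3l2, 8009 for Yme1l1 and 1474 for Hspe1. The longest protein-coding transcripts of these genes have 3094, 4707 and 774 bases, and the order by that length was not computed. In the FST controls Hspd1 was at 1440 ± 199 normalized counts per kb (SD, n = 3) and Hspa9 at 1039 ± 56.8. Trap1 followed at 368 ± 5.79 and Hspe1 at 258 ± 17.0, whose libraries did not overlap each other or their neighbours in this order. Lonp1 at 196 ± 7.50 and Clpp at 173 ± 24.8 overlapped. So did Dnaja3 at 132 ± 11.3 and Yme1l1 at 132 ± 3.64, above Afg3l2 at 115 ± 5.50 and Clpx at 93.7 ± 4.41. In the PTGC double Hspa9 at 2522 ± 130 overlapped Hspd1 at 2478 ± 205, while in the PTGC controls they were at 1908 ± 215 and 2801 ± 707. Reads of Hspd1 and Hspe1 are uncertain, because RefSeq names 23 pseudogenes after Hspd1, 7 after Hspe1 and 1 after Hspa9, and how reads that match several copies were counted is not stated.

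Lonp1 (ENSMUSG00000041168.10, chr17:56614297-56626887, minus strand, GRCm38) is shown with the 100 bases before its RefSeq start (chr17:56626904-56627003, minus strand, RefSeq on GRCm38.p6), because it is the gene that was called. Capitals mark TGACGT, the core that CREB and ATF proteins bind, found by a search of both strands.
Lonp1: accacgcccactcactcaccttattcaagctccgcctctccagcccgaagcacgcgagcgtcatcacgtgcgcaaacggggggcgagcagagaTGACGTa
Of 32851 RefSeq windows from 250 bases before to 50 after a start, 7.51% hold TGACGT. Windows were at hand for 8 of the 10 genes, and Lonp1 and Trap1 held this core. The composite motif TGATGNAA, which Atf4 dimers bind, was in 3.97% of all windows and in 0 of these 8 genes. The motifs were chosen after the expression values were known, and a match of letters is a description only.

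In the PTGC controls Lonp1 was at 1308, 1402 and 1155 normalized counts, and in the Ptpmt1 and Gcn2 doubles at 2105, 2156 and 2104. The groups did not overlap, and the doubles had an SD of 29.9 (n = 3). The log2 fold change was 0.72 ± 0.10 (SE), with an adjusted p of 0.00306 (limma). Lonp1 was called under each of the 16 alternatives run for this table, at log2 fold changes of 0.63 to 0.79 and adjusted p of 1.16e-07 to 0.0412.

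The other doubles lay on the other side of their controls. In FST Lonp1 was at 827, 859 and 893 in the controls, against 756, 689 and 676 in the Ptpmt1 and Eif2a doubles. All 3 doubles were below all 3 controls, at a log2 difference of -0.28 ± 0.17 and an adjusted p of 0.606. In PHT the controls were at 1641 and 1430 and the Ptpmt1 and Hri doubles at 1355 and 1285, again without overlap, at -0.22 ± 0.10 and an adjusted p of 0.758. Both were smaller with the GC index described below as a term, at -0.11 in FST and -0.08 in PHT, and the PHT value was -0.05 with a sex term. The difference between tables was not tested, since the tables were normalized separately and the doubles differ in their second mutation.

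With the Ptpmt1 knockout alone, Lonp1 depended on the library. The FST knockouts were at 761, 666 and 1283, so knockouts 1 and 2 were below every control and knockout 3 above every other library of the table. The fold change was 0.01 ± 0.17, and without knockout 3 it was -0.27, with an adjusted p of 0.148. The PHT knockouts were at 1467, 1520 and 1780 and overlapped the controls, at 0.05 ± 0.10. Single Eif2a mutants, at 755, 919 and 956, and Hri knockouts, at 1572 and 1494, also overlapped their controls. The 3 genes whose pattern was most like that of Lonp1 over the 27 libraries, each table centred on its own mean, were Nfe2l1 (Pearson r = 0.94), Irf2bp2 (r = 0.89) and Nfil3 (r = 0.84), out of 10845 genes. These r values share libraries and depth and are a description.

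Hspa9 (ENSMUSG00000024359.10, chr18:34937414-34954357, minus strand) was above every control in every library with a Ptpmt1 knockout and no Eif2a or Hri mutation, in all 3 tables, although none of these differences was called. The share of all genes whose groups lie apart in this way was not computed. Every statement here that groups did not overlap is therefore a description only. In FST the controls were at 4213, 4530 and 4696 and the Ptpmt1 knockouts at 5105, 5256 and 7228. The highest, knockout 3, was far above its group. The log2 fold change was 0.37 ± 0.11, with an adjusted p of 0.166. In PHT the controls were at 5879 and 6763 and the knockouts at 7316, 7818 and 8346, at 0.31 ± 0.09 and an adjusted p of 0.493. In PTGC the controls were at 7604, 7776 and 9291 and the Ptpmt1 and Gcn2 doubles at 11026, 10245 and 11335, at 0.41 ± 0.11 and an adjusted p of 0.195.

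With the Eif2a mutation or the Hri knockout added, Hspa9 lay within or near the range of the controls. The FST doubles were at 4235, 4274 and 4000, all below the 3 Ptpmt1 knockouts, at -0.47 ± 0.11 and an adjusted p of 0.0589. The PHT doubles were at 6095 and 6622, below the 3 knockouts, at -0.30 ± 0.09 and an adjusted p of 0.291. The double differed from control by -0.10 ± 0.11 in FST and 0.01 ± 0.10 in PHT. The interaction was -0.57 ± 0.16 in FST, with an adjusted p of 0.489, and -0.36 ± 0.13 in PHT, with an adjusted p of 0.998. Eif2a mutants (5078, 4718 and 4543) and Hri knockouts (6279 and 6887) overlapped their controls. The comparisons of a table share their control and knockout libraries, so these values are not independent of each other.

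Calls of Hspa9 depended on the test. DESeq2 on reads recovered from the values called it higher in the FST Ptpmt1 knockout (0.39, adjusted p = 0.0238), lower in the FST double against the knockout (-0.49, adjusted p = 0.00312) and higher in the PTGC double (0.40, adjusted p = 0.0364), and edgeR's quasi-likelihood test called it in none. Without FST Ptpmt1 knockout 3 the fold change of the knockout was 0.21, with an adjusted p of 0.117, and that of the double against the knockout -0.31, with an adjusted p of 0.0458. The genes most like Hspa9 over the 27 libraries were Nars and Lars, cytosolic tRNA synthetases (r = 0.93 and 0.92), and Psat1, an enzyme of serine synthesis (r = 0.92). They are named although Hspa9 was not called, which goes beyond the rule used for naming genes. Between Hspa9 and Lonp1 r was 0.65.

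**Figure D2:**
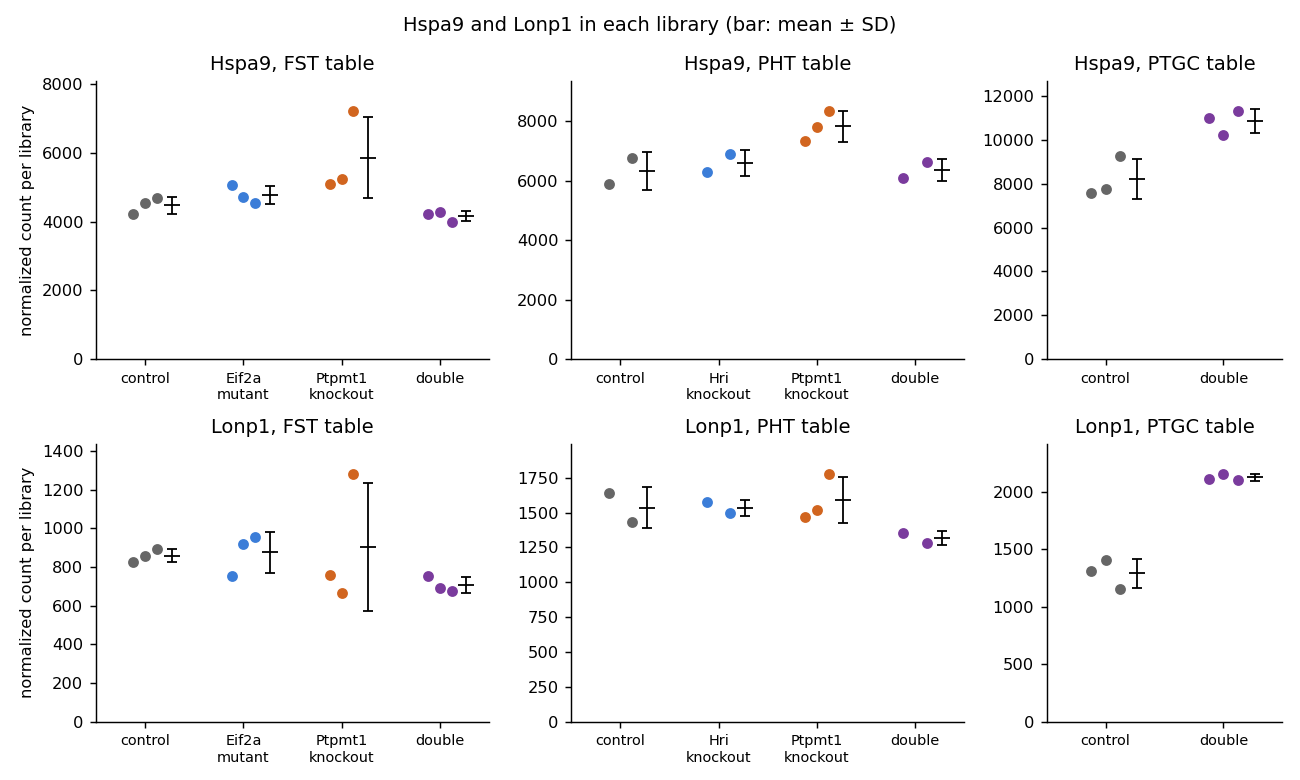
Normalized counts of Hspa9 (top) and Lonp1 (bottom) in each library of the FST, PHT and PTGC tables, with the mean and SD of each group beside its points. Hspa9 is above every control in the Ptpmt1 knockouts and in the PTGC doubles; Lonp1 is at 2104 to 2156 in the PTGC doubles against 1155 to 1402 in the controls, and at 1283 in FST Ptpmt1 knockout 3 alone.

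Hspd1 (ENSMUSG00000025980.14, chr1:55077835-55088243, minus strand) and Hspe1 (ENSMUSG00000073676.4, chr1:55088132-55091307, plus strand) are neighbours that run apart from a shared promoter, and their annotated exons overlap by 112 bases on opposite strands. The 30 bases below (chr1:55088053-55088082, plus strand, RefSeq on GRCm38.p6) lie before the Hspe1 start and hold, in capitals, the only match in this pair to GAANNTTC, the inverted repeat of the heat shock element that HSF1 binds, which 7.86% of all windows hold on either strand.
Hspe1: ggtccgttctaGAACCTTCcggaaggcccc
This match is shared by the pair, since it also falls into one of the 2 RefSeq windows of Hspd1.

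Neither subunit of the chaperonin was called in any comparison. Hspd1 was at 3447, 3554 and 4409 in the FST controls and 3885, 4328 and 3680 in the Ptpmt1 knockouts, which overlapped, at 0.07 ± 0.11. In PHT it was at 7023 and 7953 in the controls, against 7310, 8208 and 7646 in the knockouts, at 0.05 ± 0.09, and at 8107 and 8893 in the doubles, above both controls, at 0.18 ± 0.10 (adjusted p = 0.767). In PTGC control 3 was at 9559 against 6328 and 6316 in controls 1 and 2 and 5972 to 7051 in the doubles, at -0.15 ± 0.15.

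Hspe1 was at 957 and 1170 in the PHT controls, 1135, 1285 and 1232 in the Ptpmt1 knockouts and 1267 and 1495 in the doubles. The doubles lay above both controls and both Hri knockouts (981 and 1162). Their log2 fold change against control was 0.38 ± 0.12, with an unadjusted p of 0.00704 and an adjusted p of 0.699, and it was 0.19 with the GC index as a term. In FST the controls were at 373, 409 and 361 and the doubles at 438, 504 and 422, above all controls, at 0.25 ± 0.13 (adjusted p = 0.543). In PTGC the order was the other way, with controls at 880, 671 and 1101 and doubles at 673, 607 and 751, which overlapped, at -0.36 ± 0.16 (adjusted p = 0.428). Without PTGC control 2, Hspe1 was called lower in the double (-0.54, adjusted p = 0.0379), with control 3, the library of the lowest GC index, as 1 of the 2 controls left. With the GC index in the fit it was at -0.12, both with all libraries (adjusted p = 0.727) and without control 3 (adjusted p = 0.677). The ratio of Hspe1 to Hspd1 normalized counts within a library was 0.0819 to 0.115 in the FST controls and 0.115 to 0.134 in the FST doubles, with the FST Ptpmt1 knockouts at 0.101 to 0.123 overlapping the controls. In PHT it was 0.136 to 0.147 in the controls, 0.155 to 0.161 in the Ptpmt1 knockouts and 0.156 to 0.168 in the doubles, and in PTGC 0.106 to 0.139 in the controls and 0.102 to 0.106 in the doubles.

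Trap1 (ENSMUSG00000005981.11, chr16:4039971-4077827, minus strand), the Hsp90 of mitochondria, had the narrowest range of log2 differences of the 10 genes. In the FST controls it was at 957, 931 and 956 and in the Ptpmt1 knockouts at 862, 801 and 1030, which overlapped. They ran from -0.11 to 0.05 over the 13 comparisons, and the 95% interval for the Ptpmt1 knockout against control was -0.28 to 0.11 in FST and -0.12 to 0.22 in PHT. In PTGC it was at 1501, 1464 and 1590 in the controls, against 1518, 1539 and 1440 in the doubles, at -0.02 ± 0.09.

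Dnaja3 (ENSMUSG00000004069.17, chr16:4639989-4707695, plus strand), the J-domain partner of Hspa9, overlaps exons of Coro7 and Vasn, so a part of its reads is uncertain. It was at 891, 854 and 906 in the PTGC controls and 1051, 959 and 1011 in the doubles, without overlap, at 0.19 ± 0.09 (adjusted p = 0.456). In FST and PHT the Ptpmt1 knockout differed from control by -0.01 ± 0.10 and 0.01 ± 0.09, and the groups overlapped. The PHT Hri knockouts, at 789 and 797, were below both controls, at 869 and 835, without a call. Eif2a mutants and the doubles of FST and PHT overlapped their controls.

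Clpx (ENSMUSG00000015357.10, chr9:65294260-65330658, plus strand) was lower in the doubles than in the Ptpmt1 knockouts in both tables that hold them, with no overlap and no call. In FST the controls were at 329, 342 and 311, the Ptpmt1 knockouts at 379, 409 and 362 and the doubles at 271, 305 and 290. The knockouts were above all controls, at 0.23 ± 0.13 (adjusted p = 0.464), and the doubles below both groups, at -0.41 ± 0.13 against the knockouts (adjusted p = 0.158). The Eif2a mutants without the knockout, at 233, 341 and 256, overlapped the doubles, and 2 of them were lower still. In PHT the knockouts, at 571, 527 and 531, overlapped the controls, at 524 and 611. The PHT doubles, at 426 and 472, were below every other library of the table, at -0.33 ± 0.12 against control (adjusted p = 0.699). The PTGC doubles, at 601, 514 and 570, overlapped their controls, at 662, 554 and 710.

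Clpp (ENSMUSG00000002660.8, chr17:56990305-56996188, plus strand), the chamber that Clpx feeds, was at 198, 190 and 246 in the FST controls and 169, 170 and 249 in the Ptpmt1 knockouts, at -0.13 ± 0.16. In PTGC it was at 365, 349 and 318 in the controls, against 332, 366 and 357 in the doubles, at 0.03 ± 0.11. PHT double 1, at 282, was the lowest library of its table, and double 2, at 417, the highest. The PHT Hri knockouts, at 349 and 372, were below both controls, at 410 and 378, without a call. The ratio of Clpx to Clpp ranged from 1.26 to 1.79 in the FST controls and from 1.45 to 2.41 in the Ptpmt1 knockouts, which overlapped.

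Yme1l1 (ENSMUSG00000026775.9, chr2:23156369-23199260, plus strand) split the FST Ptpmt1 knockouts. The controls were at 1085, 1053 and 1027 and the knockouts at 1375, 1413 and 1047, at 0.26 ± 0.11 (adjusted p = 0.313). Without knockout 3 it was called higher, at 0.40 with an adjusted p of 0.0216, in a fit that called 847 genes. The FST doubles, at 1131, 1379 and 1106, were above every control and every Eif2a mutant, without a call. The Eif2a mutants were at 1050, 1059 and 1100, and the doubles overlapped the knockouts. PTGC control 3, at 3105, was far above controls 1 and 2, at 2243 and 1861, and the doubles, at 1920, 1750 and 1852. In PHT the knockouts, at 1754, 1843 and 1606, overlapped the controls, at 1667 and 1959. Afg3l2 (ENSMUSG00000024527.10, chr18:67404764-67449172, minus strand) was at 1087, 1193 and 1119 in the FST controls and 1060, 917 and 1128 in the knockouts, at -0.13 ± 0.09. In PTGC its doubles, at 1922, 1880 and 1878, were just above the controls, at 1775, 1868 and 1788, at 0.06 ± 0.09.

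**Figure D3:**
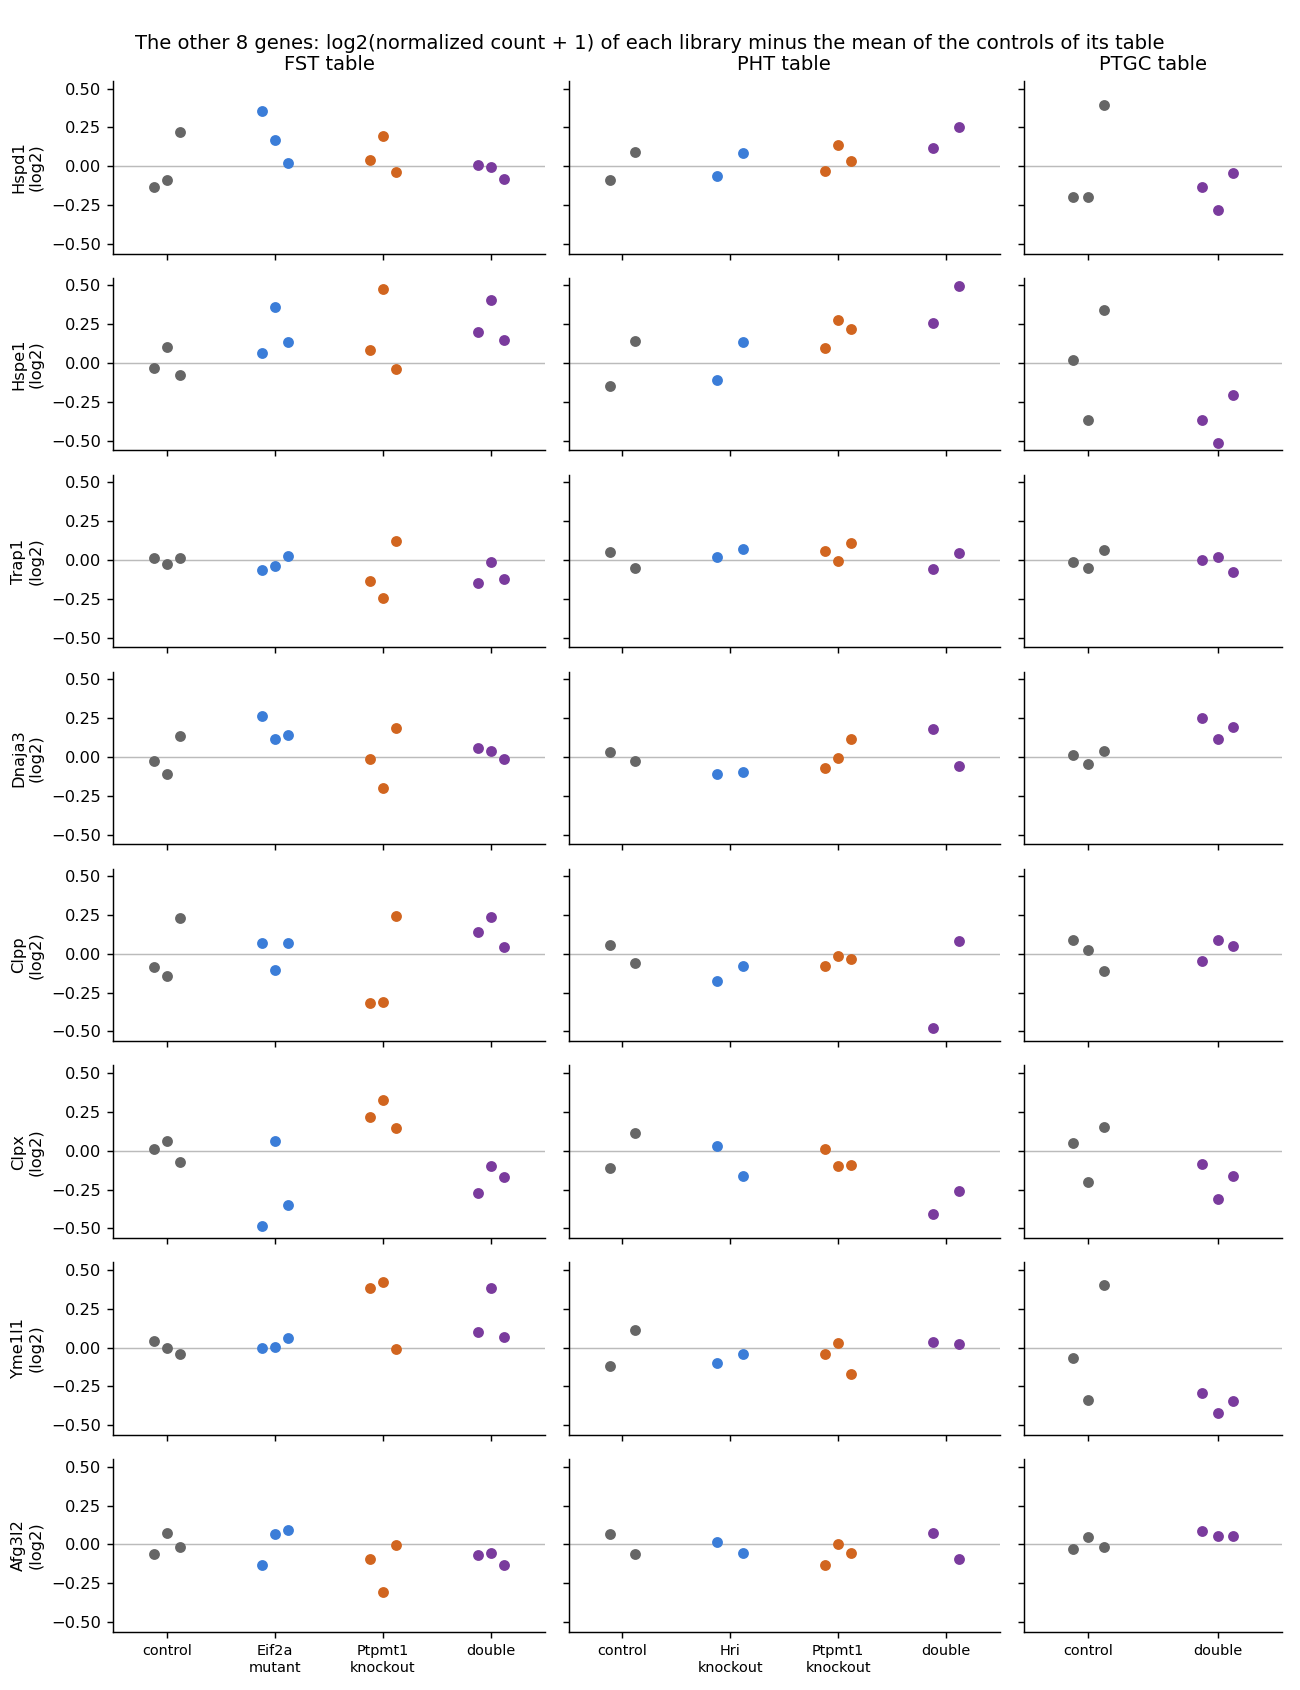
Each point is 1 library: its log2(normalized count + 1) minus the mean of the controls of its table, for the 8 genes other than Hspa9 and Lonp1. Clpx of the doubles lies below the controls in FST and PHT. Yme1l1 of FST Ptpmt1 knockouts 1 and 2 and of the FST doubles lies above the controls. PTGC control 3 is the highest library of its table for Hspd1, Hspe1 and Yme1l1.

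Some of these differences between libraries of 1 group went with the GC index, and others did not. Clpp was at 282 and 417 in PHT doubles 1 and 2, both at an index of -0.08. In the libraries with the lowest index, PTGC control 3 and FST Ptpmt1 knockouts 1 and 2, Yme1l1 was above the mean of its table, as the plot against the index shows, while FST double 2, at 1379 and an index of -0.05, was as high as knockouts 1 and 2. Yme1l1 has a transcript with 38.0% GC, the lowest of the 10, and its r with the index over the 27 libraries was -0.90. Lonp1 has 57.3% GC and r = 0.60, and Clpp 57.8% and r = 0.50. Hspd1 had r = -0.59, Hspe1 -0.69 and Hspa9 -0.11, at 46.8%, 51.7% and 45.9% GC. These values are descriptions over libraries that also differ in genotype, and the part of GC content in the differences was not tested. The fits that follow use an index computed from the same expression values, so they do not test that part either.

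With the index as a term in the fit, an alternative added after the data were seen, Yme1l1 was at -0.02 in the FST Ptpmt1 knockout and -0.10 in the PTGC double. In that fit Hspa9 and Lonp1 were called in FST, higher in the Ptpmt1 knockout (0.63 and 0.62, adjusted p = 0.0457 and 0.0464), lower in the double than in the knockout (-0.66 and -0.73, adjusted p = 0.00767 and 0.0041), and lower in the interaction (-0.79 and -0.85, adjusted p = 0.0459 and 0.0281). These FST calls rested on Ptpmt1 knockout 3. Without it the same fit gave 0.13 for Hspa9 and 0.26 for Lonp1 in the knockout, with adjusted p of 0.798 and 0.611, and called 0 of the 10 in any FST comparison. In PTGC the fit with the index called Hspa9 at 0.51 (adjusted p = 0.0106) and Lonp1 at 0.63 (adjusted p = 0.000333), and without control 3 at 0.51 (adjusted p = 0.000626) and 0.63 (adjusted p = 1.24e-05).

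**Figure D4:**
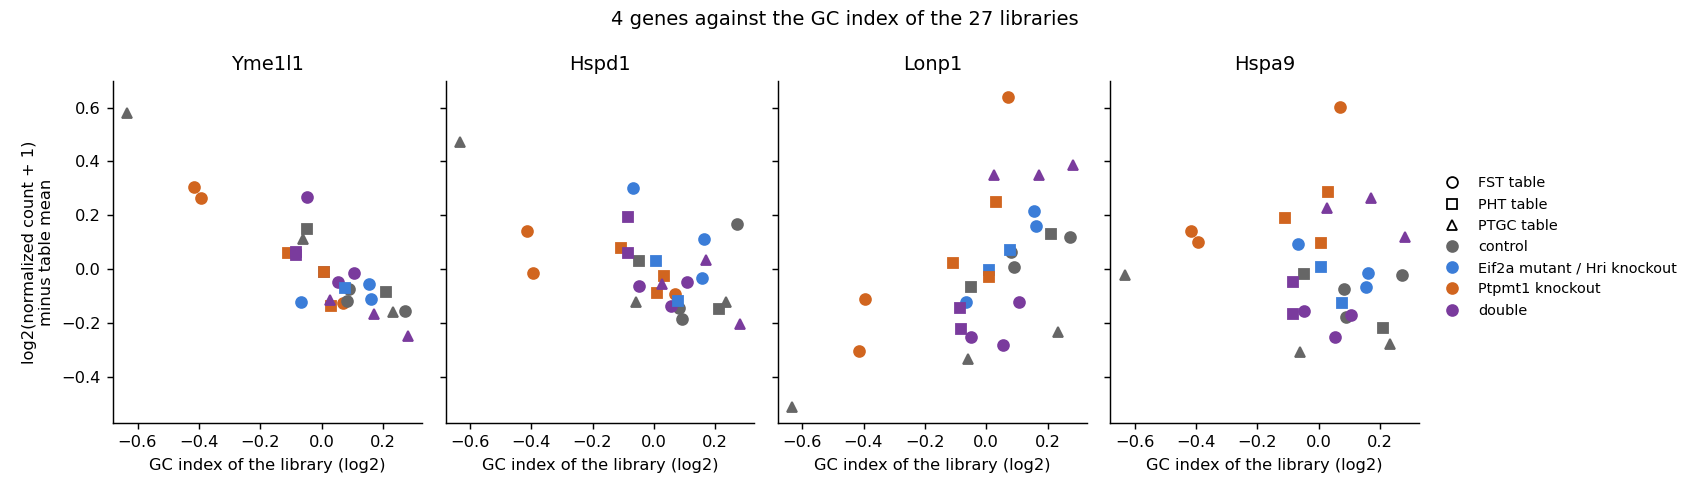
log2(normalized count + 1) minus the mean of the table for Yme1l1, Hspd1, Lonp1 and Hspa9 (vertical) against the GC index of the library (horizontal), 1 point per library, shapes for tables and colours for genotypes. Yme1l1 goes down as the index goes up (r = -0.90), and FST Ptpmt1 knockout 3 is the highest point for both Lonp1 and Hspa9, at an index of 0.07.

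Of 12 other mitochondrial chaperones and folding factors and 16 other mitochondrial proteases and peptidases, 0 were called in each of the 13 comparisons, and likewise 0 of 10 cytosolic heat shock genes, of which 8 to 10 could be tested. Without FST Ptpmt1 knockout 3, 2 of the other chaperones, 1 of the other proteases and 2 of the heat shock genes were called in the FST Ptpmt1 knockout, in a fit that called 6% of all genes. In the Ptpmt1 knockout against control the median log2 difference of the other chaperones was -0.15 in FST and 0.00 in PHT, and that of the other proteases -0.02 and -0.03.

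Transcription factors tied to the mitochondrial unfolded protein response were called in part. In the Ptpmt1 knockouts 2 of 6 were higher in FST and 3 of 6 in PHT, and in the PTGC double 4 of 6. Atf5, the mammalian counterpart of the worm factor that drives this response, was at 101 ± 0.733 in the FST controls and 406 ± 276 in the knockouts, a rise of 1.79 ± 0.31 (adjusted p = 0.0157). It rose by 2.19 ± 0.17 in the PHT knockouts (adjusted p = 3.1e-05) and by 2.65 ± 0.15 in the PTGC double (adjusted p = 2.22e-06). Atf4 rose by 0.97 ± 0.13, 0.87 ± 0.12 and 1.20 ± 0.11 in the same 3 comparisons. Ddit3 (CHOP) rose in PHT by 1.34 ± 0.22 and in PTGC by 1.85 ± 0.20, and Cebpb in PTGC by 1.56 ± 0.28. In the doubles against the Ptpmt1 knockout, Atf5 fell by 1.58 in FST and by 2.20 in PHT, and Atf4 fell by 0.74 and by 0.87. Hsf1 and Ubl5 were not called in any comparison. The FST counts of this list rested on the setting, at 0 to 3 of 6 called in the knockout and 0 to 2 of 6 in the double against it over 25 alternatives, while PTGC had 3 or 4 of 6 over its 16.

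Of 8 ISR genes, 7 were higher in the Ptpmt1 knockouts of FST and of PHT and 8 in the PTGC double, and 7 in FST and 8 in PHT were lower in the double than in the Ptpmt1 knockout. Asns, which makes asparagine, rose by 2.36 ± 0.15, 2.14 ± 0.17 and 2.64 ± 0.11 in the 3 comparisons with control, and Mthfd2, a mitochondrial folate enzyme, by 1.88 ± 0.17, 1.69 ± 0.16 and 2.16 ± 0.10. Against these, the upper 95% bounds of the 10 chaperones and proteases in the Ptpmt1 knockout were lower. They were 0.61 or less in FST and 0.50 or less in PHT. The smallest rises of the 8 ISR genes in the same comparisons were 1.06 in FST and 0.64 in PHT, as estimates without their intervals. In the PTGC double the highest bound was 0.94, that of Lonp1, above the smallest ISR rise there, 0.90 for Psat1. The ISR and transcription factor lists were chosen with earlier results of these data known, so their direction is no independent evidence.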

How the data were processed

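RNA was sequenced from cardiomyocytes after removal of ribosomal RNA with a KAPA kit, per the labels' protocols. The submitters' processing notes name the genome build mm10, STAR 2.5.3a and DESeq2 1.12.4 without saying what each did. Which read counter, annotation and strand setting were used is not given in the sources at hand. Each deposited table holds 1 line as normalized signal, whose values came out as whole reads within 0.1 once divided by a step for each library (100% of values). Dividing by it gave the reads used for depth, edgeR 4.0.16 and DESeq2 1.42.0. Titles matched columns to samples, with 0 columns left over.

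Genes that reached 10 in at least the number of libraries of the table's smallest group were tested with limma 3.58.1 (R 4.3.3; trended prior, two-sided) on log2(value + 1), in 1 fit per table, adjusted over all genes tested. Fold changes are on that scale, which understates changes of low genes. All 10 members were named, of other lists up to 3 called genes a comparison, and genes like a member by Pearson r among those with a mean of at least 50 in each table. The members and lists were chosen with earlier results of these data known. Alternatives were other tests, pseudocounts, filters and scalings, a sex term and left-out libraries. The GC index term and 3 fits that leave out FST Ptpmt1 knockout 3 or PTGC control 3 together with another change were added after the data were seen.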

Additional observations from a re-analysis of the deposited data

How the results depend on the processing

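Of 2780 fold changes of the 10 genes over the alternatives, 2762 stayed on the same side of the threshold, 18 became called and none of those called reversed, while 151 uncalled ones changed sign. The count called in the FST Ptpmt1 knockout against control went from 0 to 1 with DESeq2 and with control 3 and Ptpmt1 knockout 3 left out together, to 2 with the GC index as a term, and ranged from 0 to 1 when each library was left out in turn. For the FST double against the Ptpmt1 knockout the values were 1, 1 and 2, with a range of 0 to 1. The FST interaction had 2 called with the GC index. The PTGC count went from 1 to 2 with DESeq2, with the GC index, and with the GC index and control 3 left out, and ranged from 1 to 3 on leaving out each library, with 3 without control 2. The FST calls of Yme1l1 rested on leaving out Ptpmt1 knockout 3, which raised all genes called in the knockout from 70 to 847; DESeq2 called 325. The cause was not tested. In all other comparisons 0 of the 10 were called under every alternative run. Of 1390 counts of the other lists, 51 moved by over 1.5 times. The FST ISR count of 7 of 8 in the knockout ranged from 2 to 8.

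No paired analysis was possible because the labels give no replicate numbers that groups share, so replicates were numbered in accession order. Both the 2 or 3 libraries of a group and depth limit the precision, with Clpp at 56 reads in FST double 2.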
